A study of Homo sapiens with 8 samples.

Results

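The genes described here are the epidermal growth factor (EGF) receptors and their ligands in SCC25, an established cell line from a head and neck squamous cell carcinoma of the tongue, after knockdown of the transcription factor ETS1. The members were taken by name, as the rows EGFR, ERBB2, ERBB3, HBEGF, TGFA, EREG, AREG, NRG1, EPGN and BTC, and number 10 of the 56638 gene symbols listed. RNA-seq read counts were available for 8 libraries in 4 groups of 2. The siRNA control group received non-targeting siRNAs and the ETS1 siRNA group a pool of 4 siRNAs against ETS1, as a short-term loss. The shCON cells stably carried a non-targeting hairpin and the shETS1 cells 1 hairpin against ETS1, both delivered by lentivirus and followed by puromycin selection, as a long-term loss. All groups grew in serum-containing medium with hydrocortisone, and 1 hairpin in 1 cell line limits how far the stable knockdown stands for loss of ETS1 in general.

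The EGF receptor family consists of cell-surface tyrosine kinases that work as pairs. HBEGF, TGFA, EREG, AREG, EPGN and BTC encode ligands of EGFR, and HBEGF, EREG and BTC proteins also bind ERBB4. NRG1 encodes neuregulin, a ligand of ERBB3 and ERBB4, and ERBB2 has no known ligand of its own but pairs with the others. The ligands are made as membrane-anchored precursors and are released by ADAM proteases. In squamous epithelium this system drives proliferation and migration, and EGFR is frequently abundant in head and neck carcinomas.

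Total counts per library ranged from 15954616 to 25953213. ETS1 itself fell in both knockdowns, from 288 and 248 CPM (read counts divided by the scaled library size within each table) in siRNA control to 17.4 and 13.2 CPM in ETS1 siRNA, and from 82.3 and 72.1 CPM in shCON to 9.76 and 11.1 CPM in shETS1. The log2 fold change was -4.13 (SE 0.19, adjusted p = 0.00017) for the siRNAs and -2.89 (SE 0.10, adjusted p = 3.8e-13) for the hairpin. All 6 squamous markers examined (KRT5, KRT14, KRT6A, TP63, DSG3 and SFN) were abundant, whereas the summed leukocyte markers (PTPRC, CD3E and CD14) reached 4.01 CPM and the summed endothelial markers (PECAM1, VWF and CDH5) 0.756 CPM at most. PECAM1 was at 0 counts in every library, PTPRC had at most 11 counts and CD3E at most 1, while CD14 had 15 to 82 counts and VWF 2 to 15. The summed squamous markers moved with the groups, from 14602 to 19318 CPM in siRNA control against 22238 to 26004 CPM in ETS1 siRNA, and from 15028 to 15146 CPM in shCON against 24883 to 25180 CPM in shETS1, and their part in the results was not tested. With the hairpin KRT5, KRT14, KRT6A and DSG3 rose, but TP63 (log2 -0.40, adjusted p = 0.0013) and SFN (-0.17, adjusted p = 0.069) fell. Structural RNAs such as RN7SK took 5.61% and 6.63% of the counts in shCON and 12.3% and 9.64% in shETS1, and 7 members were called in the stable knockdown when these and mitochondrial RNAs were left out of the library sizes. Fewer cells of a type and less RNA per cell cannot be told apart in bulk libraries.

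ETS factors recognise DNA around a GGAA core. The start-site regions of HBEGF, TGFA, EREG and AREG, which fell with the stable hairpin, and of EPGN, which rose, are shown for this reason. NRG1, which also fell, had no entry, and the region of BTC is not shown. The 250 bases before the annotated start of each gene are from RefSeq on GRCh38.p14, read 5′ to 3′ on the gene's strand, with GGAA or its complement TTCC in capitals. They lie at chr5:140346604-140346853 (minus strand) for HBEGF, chr2:70553827-70554076 (minus strand, the first of 2 listed starts) for TGFA, chr4:74364895-74365144 (plus strand) for EREG, chr4:74444886-74445135 (plus strand) for AREG and chr4:74308220-74308469 (plus strand) for EPGN.
HBEGF: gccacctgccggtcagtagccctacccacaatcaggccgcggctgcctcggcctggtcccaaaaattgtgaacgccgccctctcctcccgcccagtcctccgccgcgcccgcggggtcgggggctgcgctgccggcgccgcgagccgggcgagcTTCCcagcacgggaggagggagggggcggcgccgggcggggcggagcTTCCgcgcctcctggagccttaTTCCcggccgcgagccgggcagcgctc
TGFA: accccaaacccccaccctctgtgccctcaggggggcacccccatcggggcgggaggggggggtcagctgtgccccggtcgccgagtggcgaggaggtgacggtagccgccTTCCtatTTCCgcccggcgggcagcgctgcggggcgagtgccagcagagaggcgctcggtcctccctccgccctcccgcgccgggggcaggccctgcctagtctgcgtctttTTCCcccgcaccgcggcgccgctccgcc
EREG: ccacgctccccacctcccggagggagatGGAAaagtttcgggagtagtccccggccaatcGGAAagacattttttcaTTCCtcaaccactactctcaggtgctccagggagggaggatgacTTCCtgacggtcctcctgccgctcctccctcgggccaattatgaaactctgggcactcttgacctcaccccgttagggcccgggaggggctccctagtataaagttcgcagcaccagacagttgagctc
AREG: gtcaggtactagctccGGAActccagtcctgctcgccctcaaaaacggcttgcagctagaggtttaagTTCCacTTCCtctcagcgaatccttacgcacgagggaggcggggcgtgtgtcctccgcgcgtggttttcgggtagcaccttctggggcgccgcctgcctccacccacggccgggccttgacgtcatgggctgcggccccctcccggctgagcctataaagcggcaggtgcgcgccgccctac
EPGN: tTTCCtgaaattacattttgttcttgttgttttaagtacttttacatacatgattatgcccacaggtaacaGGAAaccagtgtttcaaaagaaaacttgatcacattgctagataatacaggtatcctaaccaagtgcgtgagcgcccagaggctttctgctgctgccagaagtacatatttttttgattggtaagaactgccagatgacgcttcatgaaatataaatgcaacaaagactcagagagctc

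The core, counted on both strands, occurred 3 times before the HBEGF, TGFA and AREG starts, 4 times before EREG and 2 times before EPGN. There was 1 copy before BTC and the first EGFR start, with 5 copies before ERBB2 and the second EGFR start and 7 copies before the second TGFA start. The core is so short that 92.7% of the 35116 promoters of this length hold it, with a median of 3 copies. The longer ETS site CCGGAAGT, which contains the core, was present in 3.42% of promoters and, among the members, only before ERBB2, with 2 copies. The pattern TGANTCA, an AP-1 site searched with any middle base, was present in 6.57% of promoters. Among the members it occurred before ERBB2 with 1 copy, read as TGATTCA. The second EGFR start had 2 copies, read as TGAGTCA and TGACTCA. ERBB3 and NRG1 had no entry.

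Among the receptors, EGFR (GRCh37 chr7:55086710-55279321, plus strand) was by far the most abundant in read counts and did not pass the test in either knockdown. Its level was 577 and 543 CPM in siRNA control and 670 and 489 CPM in ETS1 siRNA. In the stable lines it was 1027 and 807 CPM in shCON and 777 and 997 CPM in shETS1. The libraries of knockdown and control overlapped in both experiments, and the log2 fold changes were 0.05 (SE 0.16, adjusted p = 0.90) and -0.05 (SE 0.12, adjusted p = 0.75). Replicates of EGFR differed enough that leaving out shETS1 replicate 2 gave -0.24 with an adjusted p of 0.019, and leaving out shETS1 replicate 1 gave 0.11 with an adjusted p of 0.31.

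ERBB2 (chr17:37844167-37886679, plus strand), the partner receptor without a ligand, stood at 32.7 and 38.8 CPM in siRNA control and at 53.2 and 45.0 CPM in ETS1 siRNA. Both ETS1 siRNA libraries lay above both controls, with a log2 difference of 0.46 (SE 0.14), but the adjusted p of 0.16 missed the threshold of 0.1. With the hairpin the levels were 34.6 and 31.5 CPM in shCON and 37.7 and 34.6 CPM in shETS1, a log2 difference of 0.13 (SE 0.09, adjusted p = 0.24). ERBB3 (chr12:56470583-56497289, plus strand), which has little kinase activity of its own and signals with ERBB2, was at 19.0 and 22.5 CPM in siRNA control against 25.5 and 17.6 CPM in ETS1 siRNA. In shCON it was at 21.8 and 20.7 CPM and in shETS1 at 21.3 and 18.2 CPM. The groups of ERBB3 overlapped in both experiments, with log2 fold changes of 0.05 (SE 0.20, adjusted p = 0.92) and -0.11 (SE 0.10, adjusted p = 0.41). Thus 0 of 3 receptors passed the edgeR test in either knockdown, beside 3.41% of all genes called with siRNA and 60.6% with the hairpin. DESeq2 also called 0 in each. The unadjusted p was under 0.05 for 1 receptor (ERBB2) with siRNA and for 0 with the hairpin. ERBB2 with siRNA did pass when no filter on low counts was used (adjusted p = 0.053) and in one fit of all 8 libraries (adjusted p = 0.051).

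**Figure D1:**
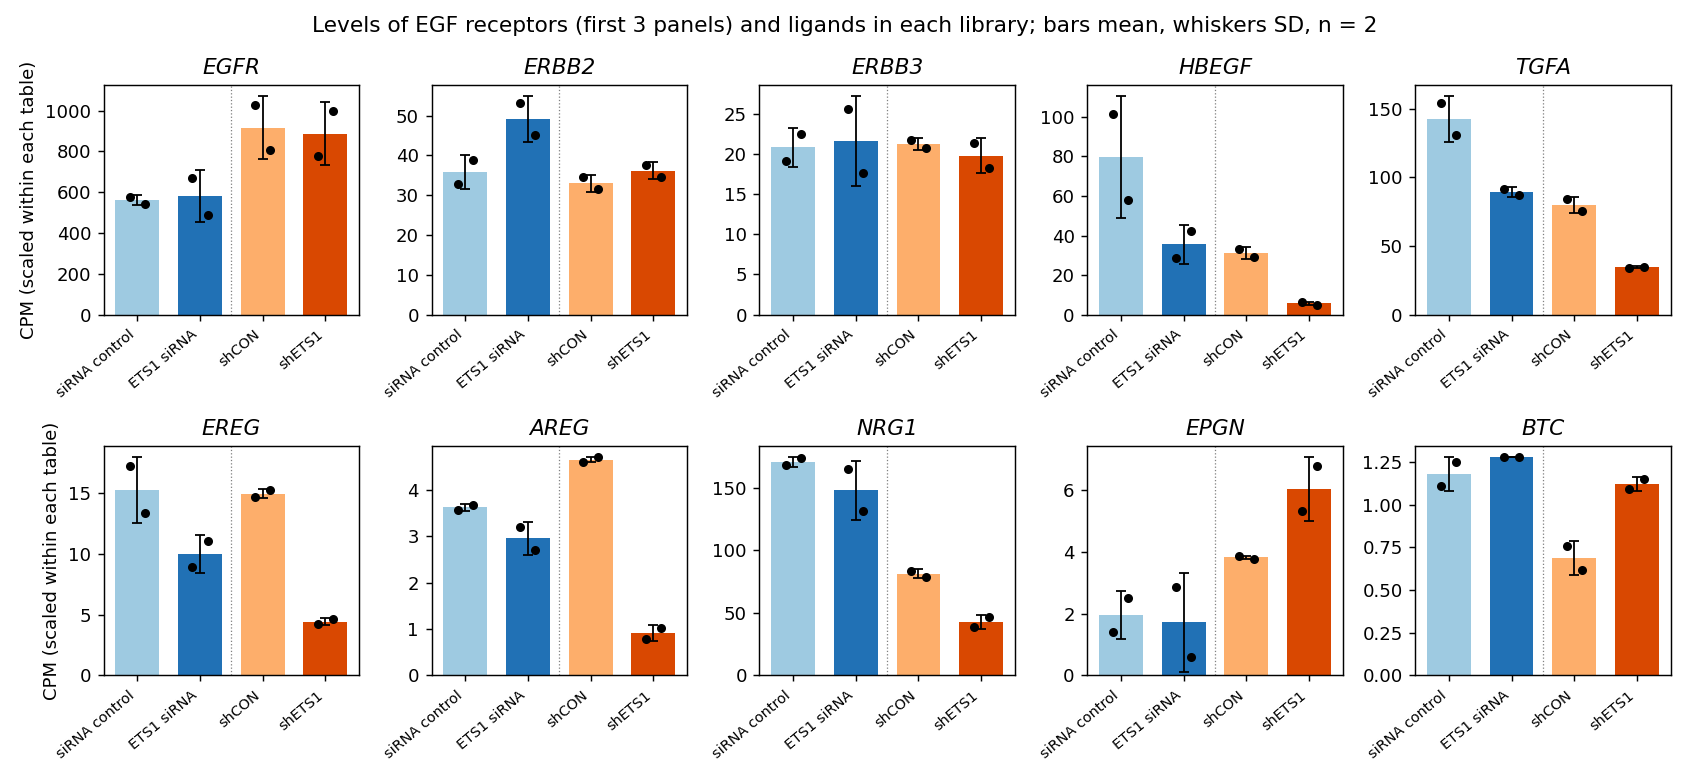
Levels of each receptor and ligand in CPM (y axis, linear from 0, a separate scale per gene) in the 4 groups (x axis), where bars are means, whiskers SDs and points the 2 libraries. HBEGF, TGFA and EREG are lower in both knockdown groups than in their controls, AREG and NRG1 are most clearly lower in shETS1, and the EGFR and ERBB3 libraries of knockdown and control overlap. CPM was scaled within each table, so bars are to be compared only on the same side of the dotted line.

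The members that passed the test were ligands. With the short-term siRNAs, 2 of 10 members passed the test, both ligands and both lower, HBEGF and TGFA, against 3.41% of the 14742 genes tested (2.27% called lower). With the stable hairpin, 7 of 10 members passed, all 7 ligands, of which HBEGF, AREG, EREG, TGFA and NRG1 were lower and EPGN and BTC higher. The background there was high, since 60.6% of the 16481 genes tested were called and 30.9% were called lower, and 7 of 10 is near that share. The median log2 fold change of the 7 ligands was -0.30 with siRNA and -1.21 with the hairpin, beside 0.0018 and 0.00066 over all genes tested. All 10 members passed the filter on low counts in both experiments.

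HBEGF (chr5:139712428-139726188, minus strand), the heparin-binding ligand, had the most negative fold change of the members with siRNA, although EPGN was lower without ETS1 siRNA replicate 1 (-1.69 against -0.91). With the hairpin it and AREG were lowest, and which of the 2 was lower changed with the library left out. HBEGF was at 102 and 57.8 CPM in siRNA control and at 28.6 and 42.4 CPM in ETS1 siRNA, and both knockdown libraries lay below both controls although the 2 controls differed widely. The log2 fold change was -1.17 (SE 0.27, adjusted p = 0.092), a 2.24-fold lower level. In the stable lines HBEGF went from 33.2 and 28.9 CPM to 6.36 and 4.96 CPM, a 5.51-fold lower level (log2 -2.46, SE 0.13, adjusted p = 6.1e-11). The siRNA call depended on siRNA control replicate 1, without which the log2 fold change was -0.70 (adjusted p = 0.48), and DESeq2 gave an adjusted p of 0.15.

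TGFA (chr2:70674416-70781325, minus strand), which encodes transforming growth factor alpha, was at 155 and 131 CPM in siRNA control and at 91.8 and 86.9 CPM in ETS1 siRNA. It was at 84.2 and 75.8 CPM in shCON and at 34.2 and 35.0 CPM in shETS1. Knockdown and control libraries were well separated in both experiments. The falls were 1.60-fold with siRNA (log2 -0.68, SE 0.14, adjusted p = 0.068) and 2.31-fold with the hairpin (log2 -1.21, SE 0.08, adjusted p = 1.8e-09). The siRNA call was lost without siRNA control replicate 1 (log2 -0.55, adjusted p = 0.52) and without ETS1 siRNA replicate 2 (log2 -0.64, adjusted p = 0.11).

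EREG and AREG encode epiregulin and amphiregulin, 2 ligands of neighbouring genes on chromosome 4. EREG (chr4:75230862-75254466, plus strand) was at 17.2 and 13.3 CPM in siRNA control and at 8.90 and 11.1 CPM in ETS1 siRNA, with all knockdown values below all control values. The log2 difference was -0.61 (SE 0.19), with an adjusted p of 0.16 and an unadjusted p of 0.012. It was -0.78 (adjusted p = 0.099) without siRNA control replicate 2 and -0.42 (adjusted p = 0.84) without siRNA control replicate 1, and it passed with no filter (adjusted p = 0.040) and in one fit of all 8 libraries (adjusted p = 0.050). With the hairpin EREG fell from 14.7 and 15.3 CPM to 4.23 and 4.64 CPM, by 3.37-fold (log2 -1.75, SE 0.13, adjusted p = 6.6e-09).

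AREG (chr4:75310853-75320722, plus strand) was scarce in reads, with 71 and 59 counts in siRNA control and 55 and 55 in ETS1 siRNA, or 3.58 and 3.68 against 3.20 and 2.71 CPM. Its log2 difference with siRNA was -0.30 (SE 0.24, adjusted p = 0.55). In the stable lines it went from 116 and 122 counts in shCON to 18 and 26 in shETS1, which is 4.61 and 4.70 against 0.784 and 1.03 CPM. The 2 groups were far apart, with a fall of 5.08-fold (log2 -2.35, SE 0.23, adjusted p = 1.9e-07). GRCh37 also lists AREGB, a near-identical copy at chr4:75480629-75490486. Of the 1639 stretches of 50 bases, the read length, in AREG transcripts, 1541 (94.0%) also occur in AREGB, whose row held 0 counts in all 8 libraries. How reads with several matches were counted is not given in the sources used here, so the level of AREG is uncertain while its change is that of the reads assigned to it.

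NRG1 was the most abundant ligand in reads of the siRNA control libraries, at 168 and 174 CPM, and was at 165 and 131 CPM in ETS1 siRNA. Both ETS1 siRNA values lay below the controls, one of them by little, with a log2 difference of -0.21 (SE 0.15, adjusted p = 0.49). In the stable lines it was at 83.8 and 78.8 CPM in shCON and at 39.0 and 46.9 CPM in shETS1. That fall was 1.89-fold (log2 -0.92, SE 0.09, adjusted p = 1.5e-07) and was clear of the replicate spread. The gene lies at chr8:31496738-32713184 on the plus strand and shares exon bases with the listed gene RP11-1002K11.1 on that strand.

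EPGN and BTC, which encode epigen and betacellulin, went the other way in the stable knockdown. EPGN (chr4:75174187-75182506, plus strand) had 28 and 40 counts in siRNA control and 49 and 12 in ETS1 siRNA, that is 1.41 and 2.49 against 2.85 and 0.591 CPM. These groups overlapped and gave no direction (log2 -0.20, SE 0.62, adjusted p = 0.90), and leaving out ETS1 siRNA replicate 2 turned the sign, to 0.56. With the hairpin EPGN rose from 97 and 98 counts (3.86 and 3.78 CPM) to 122 and 171 counts (5.32 and 6.78 CPM), by 1.59-fold (log2 0.67, SE 0.17, adjusted p = 0.0032). In one fit of all 8 libraries, which shares the larger siRNA spread, the adjusted p was 0.21.

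BTC (chr4:75669969-75719733, minus strand) had the lowest mean CPM of the members in every group except shETS1. There AREG was lower, at 0.907 against 1.12 CPM, and in ETS1 siRNA the BTC libraries overlapped with those of EPGN. BTC had 22 and 20 counts in siRNA control and 22 and 26 in ETS1 siRNA, a log2 difference of 0.12 (SE 0.34, adjusted p = 0.88). In shCON it had 19 and 16 counts (0.756 and 0.617 CPM) and in shETS1 25 and 29 counts (1.09 and 1.15 CPM). The rise of 1.63-fold (log2 0.71, SE 0.34, adjusted p = 0.091) lay just inside the threshold of 0.1. It missed the threshold when any 1 of the 4 libraries was left out (without shCON replicate 1, shCON replicate 2, shETS1 replicate 1 or shETS1 replicate 2, log2 0.57 to 0.85, adjusted p 0.16 to 0.34), and DESeq2 gave an adjusted p of 0.34.

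**Figure D2:**
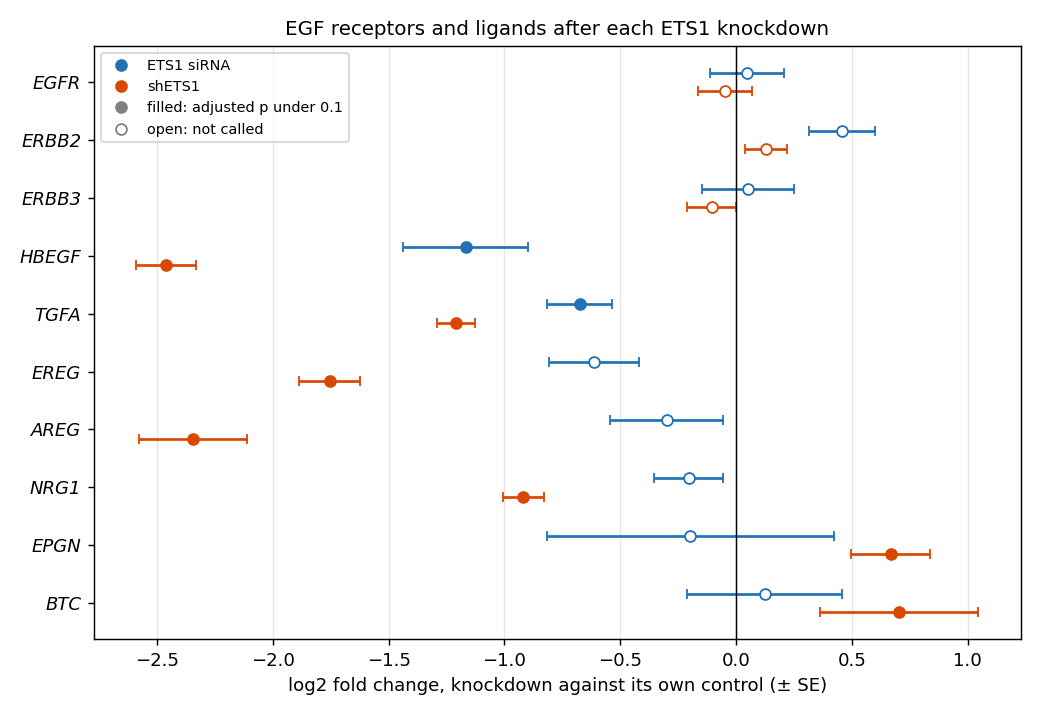
Log2 fold change of each member against its own control (x axis, points with SE) for the siRNAs and the stable hairpin, filled where the adjusted p was under 0.1. With the hairpin 5 ligands lie below 0 and EPGN and BTC above it, the 3 receptors stay near 0, and HBEGF and TGFA are the filled siRNA points.

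Whether the 2 knockdowns differed was tested directly in one fit, with the siRNA fold change subtracted from the hairpin fold change. The difference passed for 5 of 10 members, against 34.8% of the 17190 genes tested. These were AREG (log2 -2.07, SE 0.30, adjusted p = 0.00070), HBEGF (-1.32, SE 0.37, adjusted p = 0.023), EREG (-1.16, SE 0.23, adjusted p = 0.0044), NRG1 (-0.73, SE 0.18, adjusted p = 0.013) and TGFA (-0.55, SE 0.16, adjusted p = 0.023). For each of them the level fell further with the stable hairpin than with the siRNAs. The TGFA difference was lost without shCON replicate 1 (adjusted p = 0.12) or shETS1 replicate 1 (adjusted p = 0.10). EGFR (-0.12, SE 0.24, adjusted p = 0.78), ERBB3 (-0.18, SE 0.24, adjusted p = 0.64), ERBB2 (-0.35, SE 0.17, adjusted p = 0.16), BTC (0.56, SE 0.42, adjusted p = 0.37) and EPGN (0.85, SE 0.66, adjusted p = 0.38) did not pass. Without ETS1 siRNA replicate 1 the EPGN difference was 2.32 (adjusted p = 0.0044), and the ERBB2 difference passed without siRNA control replicate 2 (-0.49, adjusted p = 0.085) and without ETS1 siRNA replicate 2 (-0.48, adjusted p = 0.054). The kind of knockdown, its duration and the preparation of the table coincide, and their parts in these differences cannot be told apart.

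To compare genes with each other, counts were divided by exon length and expressed as TPM. This is the share of each gene in the length-scaled counts of those protein-coding genes of a library that were matched to the annotation. On this scale EGFR had the highest level in every group, at 157 ± 10.4 TPM (SD, n = 2) in siRNA control, 153 ± 38.5 in ETS1 siRNA, 272 ± 52.5 in shCON and 256 ± 48.6 in shETS1. TGFA followed in every group, at 130 ± 18.2 TPM in siRNA control, where it overlapped with HBEGF at 120 ± 49.1 TPM, and at 77.0 ± 7.58 TPM in shCON, above HBEGF at 49.2 ± 5.93 TPM. NRG1 held rank 4 among the 10 members in all groups, although in shETS1 its 9.23 ± 1.34 TPM was not separated from HBEGF at 8.67 ± 1.39 TPM, which in turn overlapped with EPGN at 8.42 ± 1.57 TPM. BTC had the lowest mean in every group, between 1.22 ± 0.204 TPM in shCON and 2.03 ± 0.0629 TPM in ETS1 siRNA, but its libraries overlapped with those of EPGN in both siRNA groups. With the length of the MANE Select transcript, EGFR, TGFA and BTC kept these places, and NRG1 came after ERBB2 in shCON, with overlapping libraries. The level of AREG is uncertain, since most of its sequence also occurs in AREGB. These ranks therefore hold only for the reads assigned to each gene.

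EGFR dominated the receptor make-up throughout. EGFR made up 87.0% ± 1.83 of the summed receptor TPM in siRNA control, 84.5% ± 0.828 in ETS1 siRNA, 91.9% ± 0.865 in shCON and 91.3% ± 1.99 in shETS1 (SD, n = 2). The ligand pool summed to 361 and 264 TPM in siRNA control and 175 and 174 TPM in ETS1 siRNA, and to 187 and 166 TPM in shCON and 64.3 and 69.1 TPM in shETS1. Every knockdown library thus lay below both of its controls, and the composition differed most between the stable lines. HBEGF went from 27.8% ± 0.959 of the ligand TPM in shCON to 13.1% ± 2.77 in shETS1, and EPGN from 3.10% ± 0.148 to 12.6% ± 1.70. TGFA remained the largest ligand in the pool as counted, with 43.6% ± 0.531 in shCON and 48.5% ± 0.986 in shETS1. These shares are a description of transcripts, with no test. The ligand sums and shares also carry the uncertain level of AREG, whose reads may be lost to its copy AREGB.

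**Figure D3:**
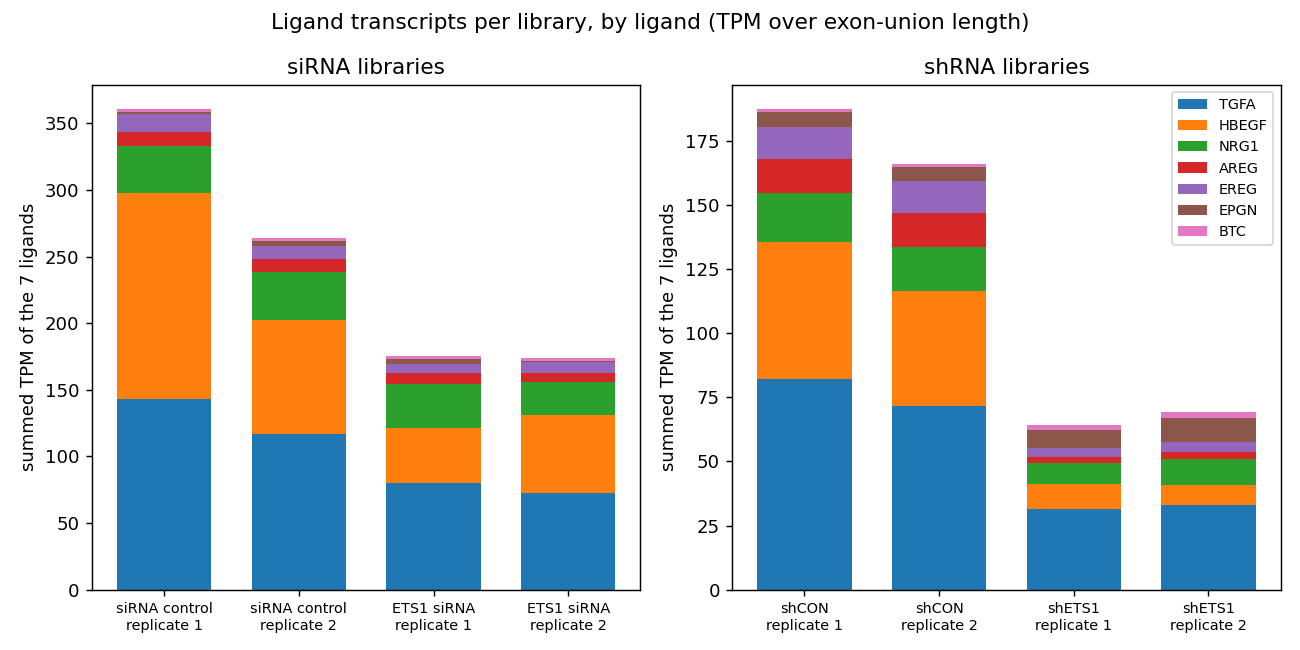
Summed TPM of the 7 ligands (y axis, linear from 0) in each library (x axis), split by ligand, for the siRNA libraries (left) and the shRNA libraries (right, a separate scale). Both knockdown pools are smaller than their control pools, the TGFA and HBEGF bands are narrower in both, and EPGN takes a wider band in shETS1.

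EPGN, EREG, AREG and BTC lie within 545.5 kb on chromosome 4, beside a group of CXC chemokine genes, and the genes of this stretch moved in both directions. In the stretch extended by 500 kb on each side, 23 genes were listed and 10 were tested with the hairpin, of which 5 were called lower and 3 called higher, beside 60.6% of all genes called and 30.9% called lower. Upstream of EPGN, CXCL2 fell (log2 -1.13, SE 0.17, adjusted p = 3.1e-05), CXCL3 fell (-0.51, SE 0.19, adjusted p = 0.034) and CXCL1 fell slightly (-0.20, SE 0.08, adjusted p = 0.036). These chemokines attract neutrophils, as does CXCL6, which rose (1.59, SE 0.17, adjusted p = 4.4e-07). MTHFD2L, next to EPGN, was at 0.21 (SE 0.14, adjusted p = 0.21), and PF4 was at -0.81 (SE 0.48, adjusted p = 0.17). With siRNA 9 of these genes were tested and edgeR called 0, beside 3.41% of all genes called. DESeq2 also called 0 among those to which it gave an adjusted p. The unadjusted p was under 0.05 for EREG, CXCL1, CXCL2, CXCL3 and CXCL6, and for 2721 of all 14742 genes tested. The log2 differences of these CXCL genes, in that order -0.79, -0.56, -0.55 and -0.90, all had a negative sign.

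**Figure D4:**
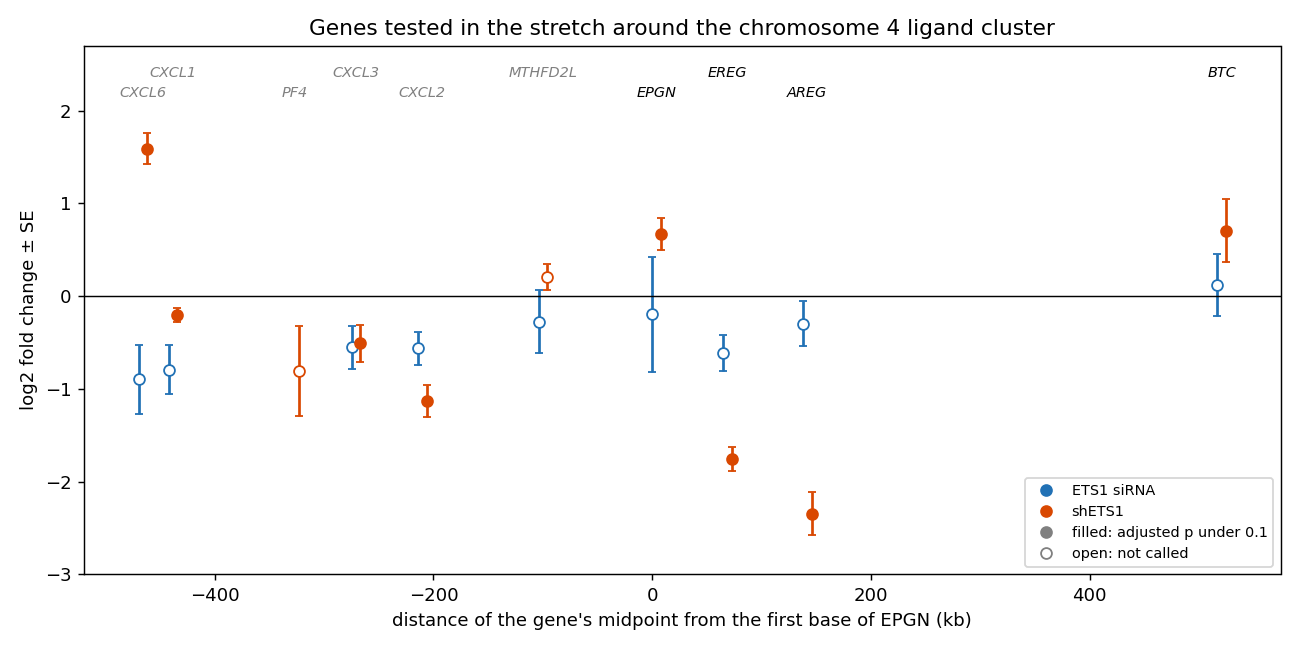
Log2 fold change with SE (y axis) of the 10 tested genes against the distance of each gene's midpoint from the first base of EPGN in kb (x axis), filled where the adjusted p was under 0.1. With the hairpin EREG and AREG lie far below 0, between EPGN and BTC above it, and no siRNA point is filled.

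The rest of the pathway was read from lists grouped by role. Of the other receptors and ligands, ERBB4, the remaining receptor of the family, had 26 and 13 counts in shCON and 62 and 68 in shETS1 (log2 1.81, SE 0.30, adjusted p = 6.5e-05), and at most 2 counts in the siRNA libraries. EGF itself rose from 3.10 and 4.32 CPM to 6.97 and 5.55 CPM with the hairpin (log2 0.75, SE 0.19, adjusted p = 0.0025), and NRG4, a ligand of ERBB4, rose from 9.19 and 9.06 to 11.1 and 11.2 CPM (log2 0.29, SE 0.12, adjusted p = 0.053). All 3 tested genes of this list were thus called higher in shETS1, beside 60.6% of all genes called. Of all 16481 genes tested, 4900 were called higher. DESeq2 called 2 of the 3 listed genes. With siRNA edgeR called 0 of 2, beside 3.41% of all genes called, with 0 at an unadjusted p under 0.05 and 0 by DESeq2. NRG2 and NRG3 were not tested.

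Of 7 genes that govern ligand release, 4 passed with the hairpin, 2 in each direction, which is no more than the 60.6% of all genes called. RHBDF2, an iRhom that escorts ADAM17 to the surface, fell (log2 -1.13, SE 0.09, adjusted p = 2.3e-08), and TIMP3, a metalloprotease inhibitor, fell (-0.49, SE 0.07, adjusted p = 2.5e-05). FRMD8, which stabilises the iRhom complex, rose by 0.26 (SE 0.08, adjusted p = 0.010) and ADAM9 by 0.15 (SE 0.07, adjusted p = 0.0998). The main ligand sheddases ADAM17 (-0.12, SE 0.08, adjusted p = 0.22) and ADAM10 (0.05, SE 0.08, adjusted p = 0.61) did not pass. With siRNA edgeR called 0 of 7, beside 3.41% of all genes called. In this list 1 gene passed with DESeq2 and 1 reached an unadjusted p under 0.05. Of all 14742 genes tested, 797 passed with DESeq2 and 2721 reached that unadjusted p.

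Of 25 adaptors and transducers, 10 passed with the hairpin, 6 higher and 4 lower, a smaller share than the 60.6% of all genes called. The adaptors EPS8 (log2 1.28, SE 0.08, adjusted p = 7.1e-10) and SOS2 (1.11, SE 0.07, adjusted p = 1.2e-09), an exchange factor for RAS, rose, while MAP2K1 (-0.61, SE 0.07, adjusted p = 2.6e-06), the kinase MEK1, and SRC (-0.80, SE 0.11, adjusted p = 7.7e-06) fell. With siRNA 3 of 25 passed, beside 3.41% of all genes called and 2.27% called lower. All 3 were lower, NRAS, the phosphatase gene PTPN11 and PIK3R1, a subunit of PI3 kinase. NRAS fell from 228 and 204 CPM to 56.4 and 52.6 CPM with siRNA, but was at 261 and 257 CPM in shCON and 247 and 266 CPM in shETS1. With the hairpin PTPN11 was also lower (log2 -0.44, SE 0.08, adjusted p = 0.00017), and PIK3R1 did not pass (0.03, SE 0.09, adjusted p = 0.79). Of 12 genes listed as receptor inhibitors, 8 passed with the hairpin, near the 60.6% of all genes called. Among them UBASH3B (-2.36, SE 0.10, adjusted p = 7.0e-12) and CBL (-1.02, SE 0.13, adjusted p = 3.4e-06) fell. CBLB (1.24, SE 0.08, adjusted p = 1.7e-09) and SOCS4 (0.37, SE 0.07, adjusted p = 0.00028) rose. The list groups these genes by role only, and their effect on the receptors here was not tested. The CBL proteins tag activated receptors for degradation. With siRNA edgeR called 0 of these 12, beside 3.41% of all genes called. Among the 12, 2 passed with DESeq2 and 3 reached an unadjusted p under 0.05.

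Most of the listed growth-factor-induced transcripts were lower in the stable knockdown. The list was chosen with earlier results of these data known, and the cause of these falls was not tested. Of 16 listed, 15 passed with the hairpin, 13 lower and 2 higher (FOS, log2 0.63, and JUNB, 0.43), with a median log2 fold change of -1.51, beside 60.6% of all genes called, 30.9% called lower and a median of 0.00066. CCND1, which encodes cyclin D1, was at -0.12 (SE 0.08, adjusted p = 0.23). FOSL1, an AP-1 subunit, went from 23.0 and 23.0 CPM to 2.44 and 2.14 CPM (log2 -3.33, SE 0.14, adjusted p = 3.1e-12), and ETV4, itself an ETS factor, from 30.7 and 29.2 to 5.88 and 5.27 CPM (-2.43, SE 0.12, adjusted p = 1.7e-11). PHLDA1 fell by 2.24 (SE 0.09, adjusted p = 1.1e-12) and IER3 by 1.68 on the log2 scale (SE 0.08, adjusted p = 1.4e-11). With siRNA 2 of 16 passed, both lower, beside 3.41% of all genes called and 2.27% called lower. Both encode ERK phosphatases. DUSP6 went from 87.1 and 80.7 CPM to 55.6 and 54.4 CPM (log2 -0.61, SE 0.12, adjusted p = 0.055) and DUSP5 from 58.5 and 56.7 to 39.6 and 38.6 CPM (-0.56, SE 0.11, adjusted p = 0.064). Over all 5 lists, 5 of 62 tested genes passed with siRNA, beside 3.41% of all genes called. This count changed with the library left out, as did the count over all genes. With the hairpin 40 of 63 passed, close to the 60.6% over all genes.

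**Figure D5:**
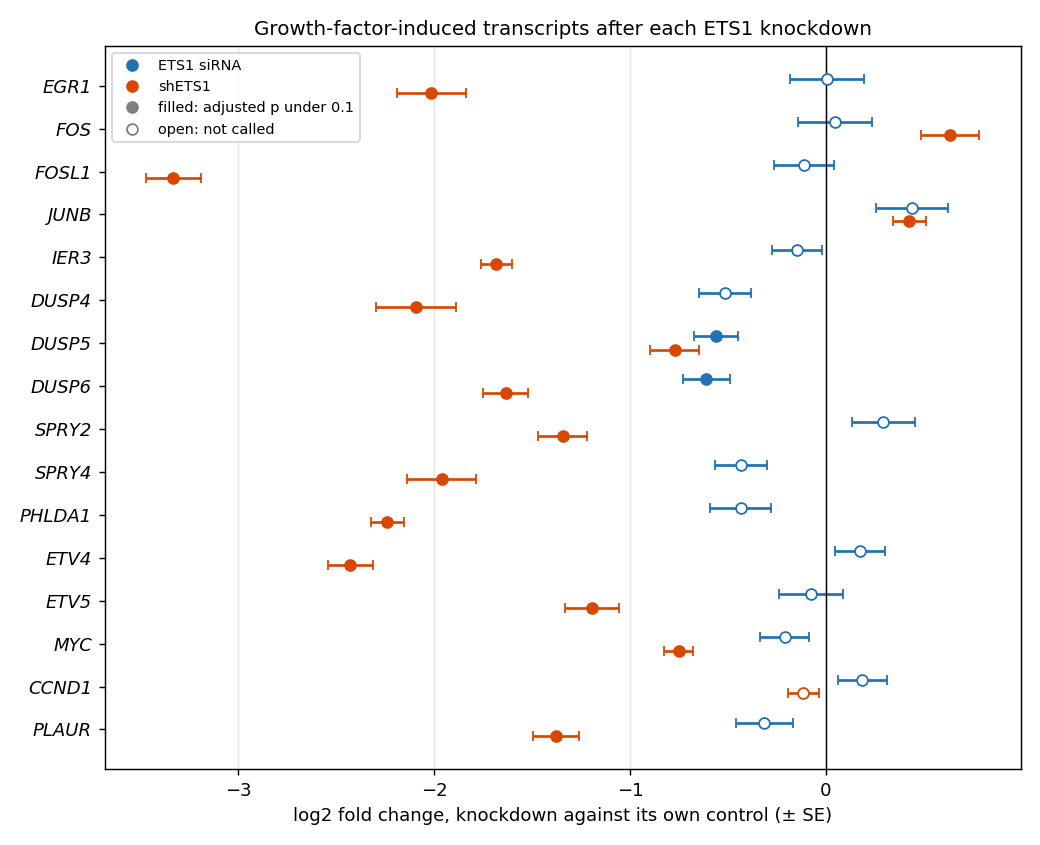
Log2 fold change with SE (x axis) of 16 growth-factor-induced transcripts after each knockdown, filled where the adjusted p was under 0.1. With the hairpin 13 points are filled below 0 and FOS and JUNB above it, and with siRNA DUSP5 and DUSP6 are the filled points.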

How the data were processed

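RNA-seq libraries of SCC25 cells were made with the Illumina TruSeq RNA kit and sequenced as single-end reads of 50 bases. The authors aligned reads to GRCh37 with TopHat2 2.1.1 and Bowtie2 2.2.6 and counted them per Ensembl gene with featureCounts 1.5.0, per the submitters' processing notes. The deposited values are raw counts per gene symbol, not normalized, in one table per knockdown. Use of strand and treatment of multiply mapped reads are not given in the sources used here, so overlapping genes (EGFR with EGFR-AS1, ERBB2 with PGAP3 and MIEN1) can share reads. Structural RNAs took at most 0.00339% of counts in the siRNA table and up to 12.3% in the shRNA table.

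Comparisons of knockdown and control used the 4 libraries of that experiment, and the difference between knockdowns all 8. Counts were tested with edgeR 4.0.16 under R 4.3.3 (quasi-likelihood test, two-sided, TMM scaling, filterByExpr). Genes with a Benjamini-Hochberg adjusted p under 0.1 over all genes tested were called, and every adjusted p without another tool's name is from this test. Nothing ties a replicate number to a shared culture, and p-values measure the spread between 2 libraries per group, which was larger for siRNA (biological coefficient of variation 0.138) than for shRNA (0.0634). The members and lists were chosen with earlier results of these data known. Named genes were all members, ETS1, AREGB, up to 4 called genes per list and comparison with the smallest adjusted p and a mean of at least 5 CPM, tested genes within 500 kb of the chromosome 4 ligands, and, for 3 members, the 3 genes nearest in both log2 fold changes. ERBB4, EGF, NRG2, NRG3, ADAM10, ADAM17, FOS, JUNB and CCND1 were named after their values were seen.

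TPM used exon-union lengths from GENCODE v44 on GRCh37, or MANE Select lengths as an alternative chosen after seeing the data. Genes were matched to this annotation by symbol. Of the 56638 symbols, 20838 had no match and 388 matched several genes, and these were left out of TPM. Alternatives were DESeq2 1.42.0, its size factors in edgeR, library size only, other filters, library sizes without structural and mitochondrial RNAs, a threshold of 0.05, a replicate block, one fit of all libraries, AREG summed with AREGB, and leaving out each library.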

Additional observations from a re-analysis of the deposited data

Results flagged for a closer look

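For 5 of 10 members, all ligands, the hairpin effect differed from the siRNA effect by a direct test (edgeR, all 8 libraries). The difference passed for 34.8% of the 17190 genes tested. The shRNA effect minus the siRNA effect on the log2 scale was -2.07 for AREG, -1.32 for HBEGF, -1.16 for EREG, -0.73 for NRG1 and -0.55 for TGFA. HBEGF and TGFA were called lower in both knockdowns, and AREG, EREG and NRG1 in the stable one. The siRNA calls of HBEGF and TGFA depended on the processing, and the TGFA difference on the library left out. The kind of knockdown, its duration and the table coincide and cannot be told apart. With 2 libraries per group, no single library could be tested as an outlier.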

How the results depend on the processing

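The calls with siRNA depended on the processing and those with the hairpin little. The 2 members called with siRNA became 4 with no filter on low counts, 4 in one fit of all 8 libraries, 1 with DESeq2, 0 at an adjusted p under 0.05, and 0 to 3 when each library was left out. The pathway genes called with siRNA (5) became 11 with no filter, 17 in the fit of all 8 libraries, 9 with DESeq2, 2 at 0.05, and 2 to 10 with a library left out. The 502 genes called overall became 1466 with no filter, 791 for protein-coding genes with at least 1 TPM, 797 with DESeq2, 2166 in the fit of all libraries, 190 at 0.05, 72 without siRNA control replicate 1 and 1478 without ETS1 siRNA replicate 1. With the hairpin 6 or 7 members were called in every alternative, and AREG, EREG, HBEGF, TGFA and NRG1 kept their call in all 15, whereas BTC kept it in 6 and EPGN lost it in the fit of all libraries. Using library size only lowered the median of all genes from 0.00066 to -0.12 with the hairpin, turned no member's sign, and gave ERBB3 -0.23 (adjusted p = 0.078) and an ERBB2 difference between knockdowns of -0.44 (adjusted p = 0.089). The cause of these shifts was not tested.

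Signs turned for genes near 0 when a library was left out. The range was -0.19 to 0.25 for EGFR, -0.23 to 0.30 for ERBB3 and -1.69 to 0.56 for EPGN with siRNA, and -0.24 to 0.13 for EGFR and -0.23 to 0.0021 for ERBB3 with the hairpin. For the difference between knockdowns it was -0.33 to 0.12 for EGFR and -0.43 to 0.10 for ERBB3. Summing AREG with AREGB could change nothing, since AREGB held 0 counts, and is not counted among the 15.

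Libraries with the same replicate number deviated in opposite directions (correlation -0.54 with siRNA and -0.24 with shRNA). This gave no sign that the numbers pair them. With 2 libraries per group the correlation cannot settle the question. With the replicate number as a block, the siRNA counts were 0 members, 2 pathway genes and 97 genes overall. In a crossed pairing, chosen after seeing the data, they were 4, 25 and 3238.

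Depth limits BTC, EPGN and AREG most, with fewer than 200 counts in any library.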

Other observations

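The genes whose log2 fold changes in the 2 knockdowns lay nearest to those of 3 members, out of 10050 that averaged 5 CPM or more in the siRNA and the shRNA libraries, were as follows. Nearest to HBEGF (-1.17 with siRNA, -2.46 with the hairpin) was PTGS2, which encodes the inducible cyclooxygenase and went from 543 and 416 to 175 and 191 CPM with siRNA (log2 -1.39, adjusted p = 0.011) and from 81.7 and 69.5 to 14.0 and 13.6 CPM with the hairpin (-2.45, adjusted p = 1.7e-12). SLC16A9, a monocarboxylate transporter gene, followed at -0.70 and -2.69, and IL1A, which encodes interleukin-1 alpha, at -1.07 and -2.99.

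Nearest to TGFA (-0.68 and -1.21) were IL17D (-0.62 and -1.22), PMAIP1 (-0.71 and -1.14), which encodes the pro-apoptotic protein NOXA, and the phosphate transporter gene SLC20A1 (-0.57 and -1.20). Nearest to EREG (-0.61 and -1.75) were ITGA2 (-0.67 and -1.65), an integrin subunit gene, DUSP6 (-0.61 and -1.63) and CAPRIN2 (-0.57 and -1.62). All 9 were called lower with the hairpin, while with siRNA PTGS2, SLC16A9, IL1A and DUSP6 were called lower. They were picked for this likeness, which is a description over 2 comparisons.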
